A study of Homo sapiens with 4 samples.

Results

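The sites described here are the BRCA2 ChIP-seq sites of human chromosome 19, taken as every site of the authors' deposited table whose sequence name is chr19. A site was 1 combination of chromosome, start and end, and 841 of the 15131 sites met this rule. The other autosomes held 14015 sites and the X chromosome 275. The BRCA2 ChIP group had 2 libraries, made with an antibody to BRCA2, and was compared by the submitters with 2 libraries of input chromatin through DiffBind. Both groups came from hTert-HME1, mammary epithelial cells of human origin that telomerase keeps dividing, crosslinked with formaldehyde during log-phase growth, and no agent or edited allele set the groups apart. Both rest on this 1 cell line. The labels do not say whether the libraries of a group came from separate cultures, and the authors' FDR may therefore reflect technical spread alone. No control antibody was analysed here, so BRCA2 binding and unspecific pull-down cannot be told apart at the sites below.

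BRCA2 acts in homologous recombination, where it helps repair broken DNA from an intact copy, and protects stalled replication forks. Chromosome 19 is known as the most gene-dense human chromosome. It carries long tandem families, among them KRAB zinc finger genes, kallikreins, leukocyte receptors and pregnancy-specific glycoproteins, beside widely used genes whose promoters are rich in GC. Input chromatin, which was sonicated and sequenced without precipitation, shows how many reads a region yields in the absence of an antibody.

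The 6 promoters below belong to the chromosome 19 genes with the largest log2 fold at a promoter site that had 1 listed start and a RefSeq promoter. They are shown because the strongest chromosome 19 sites lay at starts like these. The sequences are RefSeq's, on GRCh38.p14, from 250 bases before the start to 50 after it, while all site positions further on are on hg19. Capitals mark the GC box GGGCGG, the letters of the CCAAT box, or the ETS motif CCGGAAG, each on either strand.
PRR19, chr19:42301882-42302181, plus strand: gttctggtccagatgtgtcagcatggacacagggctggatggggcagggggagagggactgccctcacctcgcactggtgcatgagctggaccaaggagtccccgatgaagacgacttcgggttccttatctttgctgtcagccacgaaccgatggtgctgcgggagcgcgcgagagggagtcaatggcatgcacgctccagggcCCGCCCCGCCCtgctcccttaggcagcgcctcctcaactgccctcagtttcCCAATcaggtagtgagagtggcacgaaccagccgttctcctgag
SEPW1 (now SELENOW), chr19:47778453-47778752, plus strand: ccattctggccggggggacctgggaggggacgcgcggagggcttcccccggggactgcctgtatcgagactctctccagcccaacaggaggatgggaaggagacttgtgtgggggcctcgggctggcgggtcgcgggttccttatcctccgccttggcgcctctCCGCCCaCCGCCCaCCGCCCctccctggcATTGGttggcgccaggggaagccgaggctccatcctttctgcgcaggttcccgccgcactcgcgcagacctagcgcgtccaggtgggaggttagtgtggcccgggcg
LSR, chr19:35248752-35249051, plus strand: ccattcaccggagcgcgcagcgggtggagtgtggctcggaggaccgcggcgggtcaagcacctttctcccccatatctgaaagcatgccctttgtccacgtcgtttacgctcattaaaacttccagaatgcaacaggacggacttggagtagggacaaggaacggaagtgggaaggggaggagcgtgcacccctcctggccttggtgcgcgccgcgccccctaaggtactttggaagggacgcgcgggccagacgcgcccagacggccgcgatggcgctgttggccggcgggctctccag
PRDX2, chr19:12801751-12802050, minus strand: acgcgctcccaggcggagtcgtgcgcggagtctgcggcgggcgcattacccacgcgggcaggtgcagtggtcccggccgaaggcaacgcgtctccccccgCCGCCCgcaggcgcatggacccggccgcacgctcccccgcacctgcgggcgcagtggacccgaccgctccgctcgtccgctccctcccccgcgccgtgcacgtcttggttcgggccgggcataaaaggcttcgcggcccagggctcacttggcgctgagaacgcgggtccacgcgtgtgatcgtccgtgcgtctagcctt
DPP9, chr19:4723793-4724092, minus strand: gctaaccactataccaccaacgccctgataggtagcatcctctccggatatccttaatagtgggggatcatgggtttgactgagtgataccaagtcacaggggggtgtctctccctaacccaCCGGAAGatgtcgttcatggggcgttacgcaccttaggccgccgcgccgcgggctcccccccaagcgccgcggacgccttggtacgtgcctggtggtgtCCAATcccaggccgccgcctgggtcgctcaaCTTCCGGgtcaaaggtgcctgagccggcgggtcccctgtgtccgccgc
GIPC1, chr19:14496078-14496377, minus strand: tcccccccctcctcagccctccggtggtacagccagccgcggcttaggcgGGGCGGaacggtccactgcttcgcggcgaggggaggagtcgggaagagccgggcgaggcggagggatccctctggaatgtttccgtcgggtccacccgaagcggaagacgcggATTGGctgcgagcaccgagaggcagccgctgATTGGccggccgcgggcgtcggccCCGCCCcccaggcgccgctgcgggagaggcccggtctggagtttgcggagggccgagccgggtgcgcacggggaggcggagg

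The 6 sequences had a GC content between 62.3% and 74.3%. A GC box was found in 4 of them, and the sequences of LSR and DPP9 held none. The LSR sequence held none of the marked motifs. PRR19 encodes a proline-rich protein, SEPW1 selenoprotein W, LSR a receptor of tricellular junctions, PRDX2 a peroxiredoxin, DPP9 a dipeptidyl peptidase and GIPC1 an adaptor of membrane receptors. The start of the deposited annotation and that of RefSeq need not be the same base.

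BRCA2 sites were dense along chromosome 19 when counted per base and sparse when counted per gene. Chromosome 19 held 5.66% of the autosomal sites (95% Wilson interval 5.30 to 6.04%). It carried 14.3 sites per Mb, against 5.18 per Mb on the other autosomes together, and was first of the 22 autosomes. Per 100 protein-coding genes it carried 58.0 sites, against 79.3 on the other autosomes, which placed it 20th of 22. The ratio per gene was 0.731. Chromosome 19 had 1451 protein-coding genes in the gene table, or 24.7 per Mb, against 6.54 per Mb on the other autosomes.

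The shortfall per gene lay in the sites away from promoters. A promoter site here covered a gene start of the table, or its listed distance to one was at most 1 kb. Chromosome 19 carried 26.7 promoter sites per 100 genes, against 25.8 on the other autosomes, a ratio of 1.035 and the 11th place of 22. Away from promoters it carried 31.2 sites per 100 genes, against 53.5, a ratio of 0.584 and the 20th place. Counted per Mb, sites away from promoters stood at 7.70 on chromosome 19, against 3.49 on the other autosomes, and it ranked 1st. Sites whose log2 fold was 2 or more stood at 8.20 per 100 genes on chromosome 19 and at 8.34 on the other autosomes. These are counts of sites set beside each other, with no test, since sites of 1 table are not replicates.

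**Figure D1:**
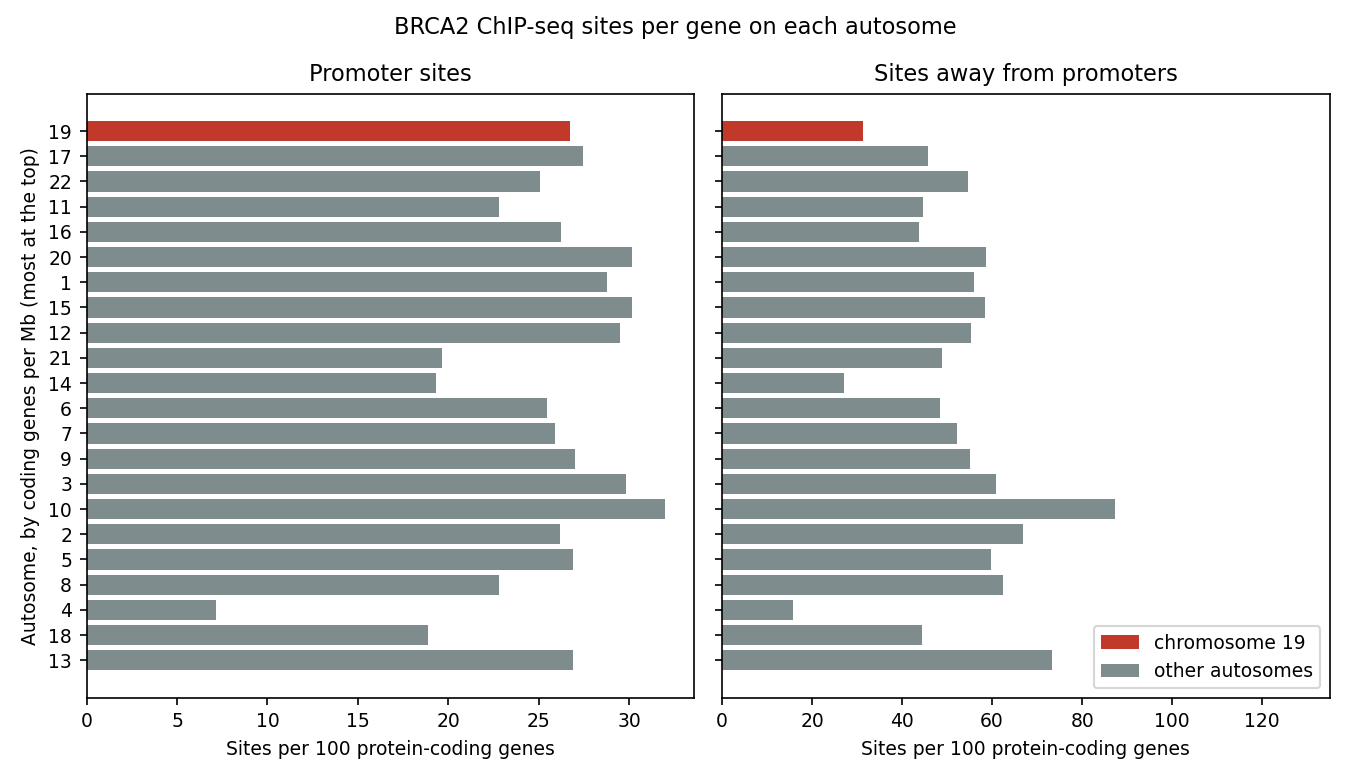
Bars give the number of BRCA2 sites per 100 protein-coding genes on each autosome, at promoters on the left and away from them on the right, with autosomes ordered by gene density. Chromosome 19 stands at 26.7 promoter sites, near the other autosomes together at 25.8, and at 31.2 sites away from promoters, below them at 53.5.

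Promoter sites made up 388 of the 841 chromosome 19 sites, or 46.1% (42.8 to 49.5%), against 32.6% on the other autosomes. This share was the highest of the 22 autosomes, and chromosome 14 came next with 41.6%. Across the 22 autosomes the promoter share and the number of genes per Mb had a Spearman correlation of 0.737, and of 0.697 over the 21 without chromosome 19. The points share libraries, site calling and annotation, so this is a description. Where the log2 fold was 2 or more, chromosome 19 ranked 4th, with 50.4% promoter sites against 43.1% on the other autosomes.

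By class, 249 chromosome 19 sites covered a start, 16 covered an end, 398 were wholly within genes and 178 touched no gene. Those covering a start were 29.6% on chromosome 19, against 21.6% on the other autosomes, and those touching no gene 21.2%, against 30.2%. The share wholly within genes was 47.3%, against 47.2%. By contrast, 19.1% of the chromosome 19 sites lay over 10 kb from any listed start, against 41.3% of the sites on the other autosomes. Promoter sites of at least 2 listed starts, covered or within 1 kb, made up 14.4% of chromosome 19 sites and 9.91% of the others. Of the chromosome 19 promoter sites, 100 had starts on both strands, which is 25.8%, against 26.2% on the other autosomes.

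All 841 chromosome 19 sites were higher in BRCA2 ChIP than in input in the authors' deposited table. The authors' mean log2 concentration ran over these sites between 5.54 and 11.32 in ChIP, with a median of 6.59, and between 2.79 and 6.82 in input, with a median of 5.34. On the other autosomes the medians were 6.60 in ChIP and 5.43 in input. The log2 fold of the authors' deposited table had a median of 1.21 on chromosome 19 (1.18 to 1.25, 95% interval from binomial ranks), against 1.14 on the other autosomes. As a linear fold this was 2.31 on chromosome 19, against 2.20. The median ChIP values of chromosome 19 and of the other autosomes lay within 0.01 of each other, and the median input value was the lower one on chromosome 19.

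This small difference in fold was carried by sites away from promoters. There the median log2 fold was 1.19 on chromosome 19 and 1.1 on the other autosomes. At promoter sites the order was the opposite, with 1.23 on chromosome 19 (1.17 to 1.29) and 1.26 on the other autosomes. The chromosome 19 interval spans the value of the other autosomes. The log2 fold was 2 or more at 119 chromosome 19 sites, or 14.1%, against 10.9% over the whole of the authors' deposited table. It was 4 or more at 26, or 3.09%, against 2.03% over the whole table, and 1 or more at 601, or 71.5%, against 66.9%. An FDR under 0.01 was held by 656 sites, which is 78.0%, against 74% over the whole table. At the limit of a log2 fold of 2, the nearest sites below it lay by HCN2 and BSG, with 1.97, and by LHB and RUVBL2, with 1.98. The nearest above it lay in MAMSTR and by IRF2BP1, both listed at 2.00 in the authors' deposited table.

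**Figure D2:**
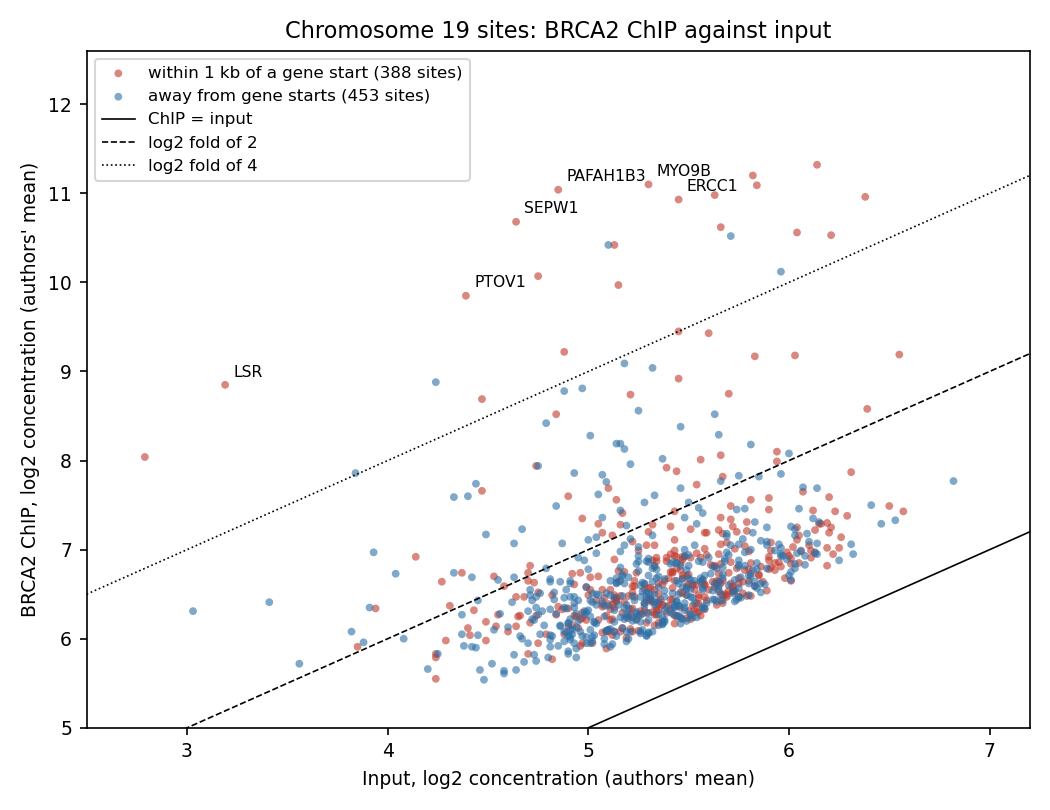
Each point is 1 of the 841 chromosome 19 sites, with the authors' mean log2 concentration in input across and in BRCA2 ChIP upwards, and lines at equal values and at log2 folds of 2 and 4. Every site lies above the line of equal values, which the selection of sites by FDR largely sets. The strongest are mostly promoter sites, led in fold by PAFAH1B3 with 11.04 in ChIP and 4.85 in input.

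On chromosome 19 the promoter share was nearly flat over most of the range of fold. It was 47.1% under a log2 fold of 1, 43.9% at 1 to 1.5, 46.5% at 1.5 to 2 and 41.9% at 2 to 4. At 4 and over it was 80.8%, or 21 of 26 sites. On the other autosomes the share was 24.3% under a log2 fold of 1, 33.7% at 1 to 1.5, 41.1% at 1.5 to 2, 35.9% at 2 to 4 and 75.6% at 4 and over. The gap between chromosome 19 and the other autosomes was thus widest among the weakest sites. The 95% intervals lay apart under a log2 fold of 1 and at 1 to 1.5, and overlapped above.

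**Figure D3:**
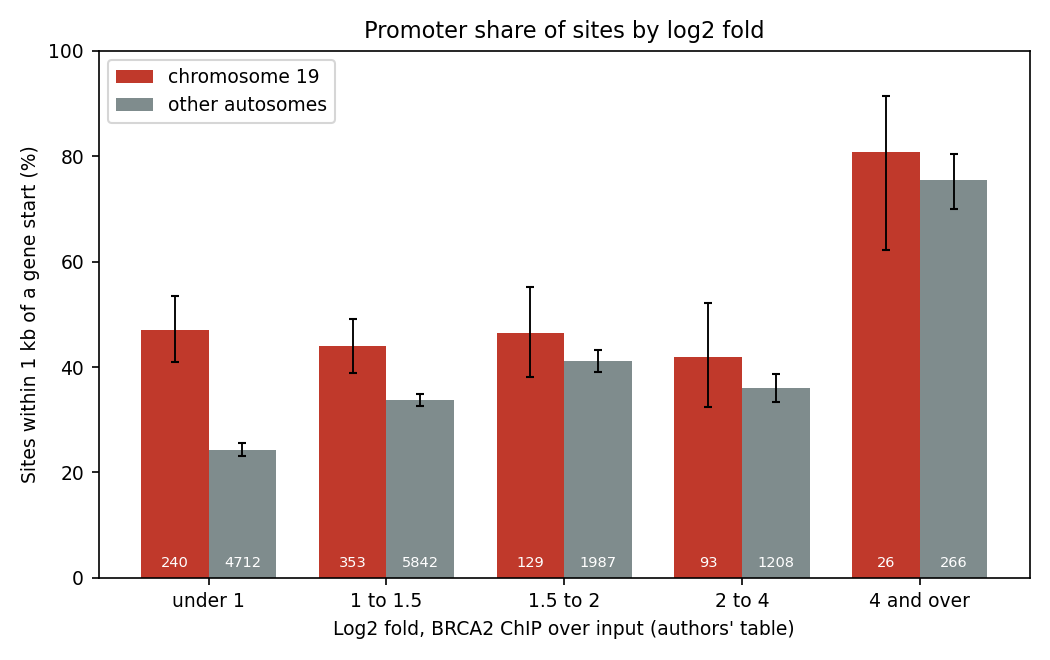
Bars give the percentage of sites within 1 kb of a gene start by log2 fold, with 95% Wilson intervals and the number of sites at the foot of each bar. Under a log2 fold of 1, chromosome 19 stands at 47.1% and the other autosomes at 24.3%, and at 4 and over they stand at 80.8% and 75.6%.

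The strongest chromosome 19 sites lay at starts of genes with many roles. By the authors' deposited table, the largest fold fell inside both PRR19 and PAFAH1B3, at chr19:42806570-42807069, with 11.04 in ChIP, 4.85 in input, a log2 fold of 6.19 (FDR 3.89e-108). Its centre lay 570 bp into PRR19 and 878 bp into PAFAH1B3, a subunit of platelet-activating factor acetylhydrolase on the opposite strand. SEPW1 followed, with 10.68 in ChIP, 4.64 in input and a log2 fold of 6.04 in the authors' deposited table. Its site, chr19:48281572-48282071, was centred 7 bp before the listed start.

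The site at chr19:17186111-17186610 covered the starts of MYO9B, an unconventional myosin, and of HAUS8, a subunit of the augmin complex of the mitotic spindle. It had 11.10 in ChIP, 5.30 in input, a log2 fold of 5.80 (FDR 2.24e-110) in the authors' deposited table. LSR, whose promoter is printed above, reached a log2 fold of 5.67 from a low input, with 8.85 in ChIP and 3.19 in input in the authors' deposited table. Its input was the lowest among the 10 sites of largest fold, where input ran up to 5.82.

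A single site, chr19:45909510-45910009, served 3 genes. It covered the start of PPP1R13L, which encodes the p53 inhibitor iASPP, lay 43 bp into CD3EAP (now POLR1G), a subunit of RNA polymerase I, and lay 582 bp past the end of ERCC1, a partner of the XPF nuclease in nucleotide excision repair. The authors' deposited table gave it 10.93 in ChIP, 5.45 in input and a log2 fold of 5.48. PTOV1 had 9.85 in ChIP, 4.39 in input and a log2 fold of 5.46 in the authors' deposited table. The site of CALM3, a calmodulin gene, had 11.20 in ChIP, 5.82 in input and a log2 fold of 5.38 in the authors' deposited table. The CALM3 site ended 8 bp before the CALM3 start and overlapped the neighbouring PPP5D1.

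The DNMT1 site, chr19:10305478-10305977, had 10.98 in ChIP, 5.63 in input and a log2 fold of 5.35 in the authors' deposited table. DNMT1 is the maintenance DNA methyltransferase. The site lay 36484 bp inside the outermost listed start of DNMT1, and a second record of the same locus in the table starts within the site. RAVER1, which encodes an RNA-binding protein, and ICAM3, a leukocyte adhesion molecule, were paired with 1 site of log2 fold 5.32, with 10.07 in ChIP and 4.75 in input in the authors' deposited table. That site lay within 1 kb of the RAVER1 start and 368 bp past the end of ICAM3. ETV2, an ETS factor of blood and vessel development, was the only one of the 10 away from a listed start, with 10.42 in ChIP, 5.10 in input and a log2 fold of 5.32 in the authors' deposited table.

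Ranked by FDR, the first chromosome 19 site was that of DOHH, which encodes deoxyhypusine hydroxylase, a modifier of the translation factor eIF5A. At chr19:3500602-3501101 it had the highest ChIP value of the chromosome, 11.32, with 6.14 in input, a log2 fold of 5.18 (FDR 1.96e-125) in the authors' deposited table. The 10 sites of smallest FDR also held those at TRIP10 and GPR108, with a log2 fold of 5.25, and at PRMT1, with 4.58, in the authors' deposited table. TRIP10 encodes a membrane-bending adaptor and PRMT1 the main asymmetric arginine methyltransferase. The site at PRDX2 and HOOK2 had 10.42 in ChIP, 5.13 in input and a log2 fold of 5.29 in the authors' deposited table. All 10 were promoter sites, and 6 of them were also among the 10 of largest fold. The lowest log2 fold of chromosome 19 was 0.63 in the authors' deposited table, at 2 sites inside POU2F2, an octamer-binding factor, and at 1 over the start of LIPE-AS1.

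Around the start, chromosome 19 promoter sites were centred a median of 22 bp into the gene, against 13 bp on the other autosomes. The centre lay past the start at 210 of 388 sites, or 54.1%, against 52.0% on the other autosomes. At a log2 fold of at least 4, it lay past the start at 16 of 21 chromosome 19 sites, or 76.2% (54.9 to 89.4%), against 42.8% of 201 sites on the other autosomes (36.1 to 49.7%). The median position of those sites was 91 bp into the gene on chromosome 19 and -60 bp on the other autosomes, where the minus sign means before the start. With 21 sites this is a description of small counts, and the positions depend on which start the annotation lists.

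**Figure D4:**
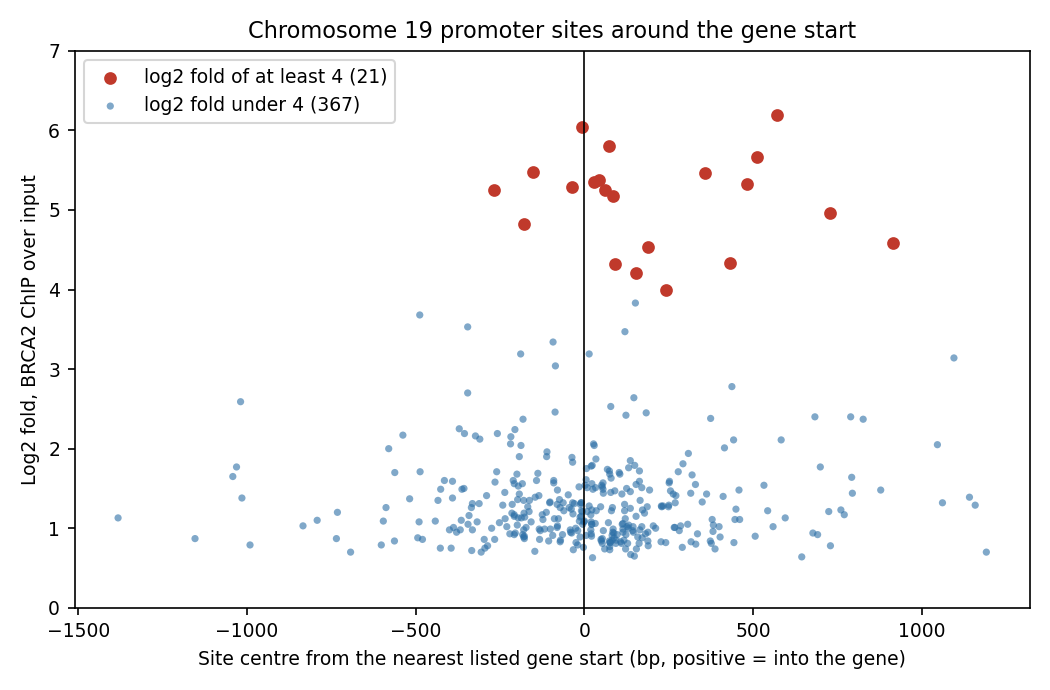
Each point is 1 of the 388 chromosome 19 promoter sites, with the distance of its centre from the nearest listed gene start across (positive into the gene) and the authors' log2 fold upwards. Of the 21 sites whose log2 fold was 4 or more, 16 lie past the start.

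Chromosome 19 promoters with a site had a median GC content of 63.7% over 323 RefSeq promoters, against 63.0% over 862 without a site within 1 kb. The ETS motif CCGGAAG, on either strand, occurred in 27.6% of chromosome 19 promoters with a site and in 15.7% of those without. On the other autosomes it occurred in 25.5% with a site and in 9.94% without, and over all autosomes but chromosome 8, which was left out, in 14.4% of promoters. In chromosome 19 ZNF promoters the motif occurred in 44.6% with a site and in 46.3% without. The GC box stood in 71.5% of chromosome 19 promoters with a site and in 64.3% of those without. The CCAAT box stood in 43.0% with a site and in 39.0% without, and the TATA box (TATAAA) in 5.88% and 7.31%. Among chromosome 19 ZNF promoters the order was the opposite for the GC box, with 60.2% with a site and 72.1% without, and for the CCAAT box, with 45.8% and 58.1%. A match is a string of letters in a window and shows no bound factor.

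Of the 1451 chromosome 19 protein-coding genes, 669 were paired with a site, or 46.1%, against 44.5% of all genes of chromosomes 1 to 22 and X. Sites within 1 kb of the start were found at 376, or 25.9%, against 23.6% of all genes. On the other autosomes alone the shares were 45.6% and 24.1%. The median log2 fold of a gene's strongest site was 1.32 on chromosome 19 and 1.31 on the other autosomes. It was 2 or more at 140 chromosome 19 genes, or 9.65%, against 7.87% of all genes, and 4 or more at 37, or 2.55%, against 1.9% of all genes. Of the chromosome 19 genes with a site, the 140 were 20.9%. The strongest site lay within 1 kb of the start at 312 of the 669 genes, past or over the gene's end at 76, inside the gene at 204 and upstream at 77. The table pairs 1 site with several neighbours, so genes are not independent of each other. It paired 196 chromosome 19 sites with 2 coding genes, 14 with 3 and 2 with 4.

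Among 25 genes of genome maintenance, 16 had a site, or 64%, and 10 had one at the promoter, or 40%. Over all chromosome 19 protein-coding genes these shares were 46.1% and 25.9%. The strongest sites of the 16 had a median log2 fold of 1.59. Of the 16, 5 reached 2, against 140 of 669 over all chromosome 19 genes with a site. PPP1R13L, ERCC1 and DNMT1, described above, led the list, with PPP1R13L and ERCC1 counted through the same site. At its own promoter ERCC1 had a log2 fold of 0.83 in the authors' deposited table. RUVBL2, an ATPase of chromatin remodelling, had a site 15646 bp inside the gene. There the authors' deposited table gave 6.31 in ChIP, 3.03 in input and a log2 fold of 3.28, but 0.78 at the RUVBL2 promoter. The ChIP value inside the gene lay below the chromosome 19 median of 6.59, and the input below the median of 5.34. POLD1, the catalytic subunit of DNA polymerase delta, had a site over its start with 7.29 in ChIP, 5.05 in input and a log2 fold of 2.24 in the authors' deposited table. The repair genes XRCC1, LIG1, ERCC2 and BABAM1 had no site, nor did RNASEH2A, SIRT6, XAB2, MBD3 and GADD45GIP1.

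Of 19 genes of mitosis and the cell cycle, 11 had a site, or 57.9% (36.28 to 76.86%). Those with a promoter site were 8, or 42.1% (23.14 to 63.72%). All chromosome 19 protein-coding genes together stood at 46.1% and 25.9%. The strongest sites of the 11 had a median log2 fold of 2.04, and only 4 of these sites lay within 1 kb of the start. The median value was that of UBE2S, at a site 428 bp past its end, against 0.87 at its promoter. This list, like the others, was chosen with earlier results of these data known. Its median and its leading genes are therefore no test of mitotic genes. PAFAH1B3, the acetylhydrolase subunit described above, led the list through the PRR19 promoter site, at a listed distance of 1128 bp from the PAFAH1B3 start. After PAFAH1B3 and HAUS8 came UBE2M, a conjugating enzyme for NEDD8. Its stronger site lay 417 bp past the gene's end, with 7.92 in ChIP, 5.39 in input and a log2 fold of 2.53 in the authors' deposited table, against 1.02 at its promoter. That site also covered the start of CHMP2A, a neighbouring gene of the membrane-cutting ESCRT machinery. PPP6R1, a regulator of protein phosphatase 6, had a promoter site of log2 fold 2.16 in the authors' deposited table. CCNE1, AURKC, CDC34, CDKN2D, HAUS5, PLK5, CCDC61 and CCDC8 had none.

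Ribosomal protein genes carried weak sites at their starts and stronger ones past the end or further inside. Of 13, 10 had a site, or 76.9% (49.74 to 91.82%), against 46.1% of all chromosome 19 genes. Those with a promoter site were 9, or 69.2% (42.37 to 87.32%), against 25.9%. The 10 had a median log2 fold of 2.06, but in 6 of them the strongest site lay away from the start. RPL18 had 7.94 in ChIP, 4.74 in input and a log2 fold of 3.19 at a site 239 bp past its end, against 1.60 at its promoter, in the authors' deposited table. RPS9 had 2.65 at a site 7609 bp inside the gene and 1.08 at its promoter in the authors' deposited table. RPL13A reached 2.11 in a site 366 bp beyond its end in the authors' deposited table, and that was its only site. The RPL18 site also lay within 1 kb of the start of FAM83E. RPS15 and RPL36 were among the genes with no site.

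Among translation factors, 2 genes had a site of high log2 fold past the end. EIF3G, a subunit of initiation factor 3, had 7.74 in ChIP, 4.44 in input and a log2 fold of 3.30 at a site 430 bp past its end, against 1.22 at its promoter, in the authors' deposited table. EEF2, the elongation factor that moves the ribosome along the message, had a site 435 bp past its end. There the authors' deposited table gave 6.41 in ChIP, 3.41 in input and a log2 fold of 2.99. That ChIP value lay below the chromosome 19 median of 6.59, and the input below the median of 5.34. The same site lay 3999 bp upstream of DAPK3, a kinase of cell death and contraction. DHPS, which acts just before DOHH on eIF5A, had a promoter site of log2 fold 1.48 in the authors' deposited table. In all, 7 of 9 translation factors had a site, or 77.8% (45.26 to 93.68%). Those with a promoter site were 4, or 44.4% (18.88 to 73.33%). The shares over all chromosome 19 genes were 46.1% and 25.9%. The 7 had a median log2 fold of 1.48, and EIF3K and CNOT3 had no site.

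Of 25 splicing and RNA-binding genes, 15 had a site, or 60% (40.74 to 76.6%). At the promoter 13 had one, or 52% (33.5 to 69.97%). The shares over all chromosome 19 genes were 46.1% and 25.9%. The 15 had a median log2 fold of 1.19. HNRNPUL1, an hnRNP-like protein also linked to break resection, led with 9.18 in ChIP, 6.03 in input and a log2 fold of 3.14 at its promoter in the authors' deposited table. SF3A2, a subunit of the U2 snRNP, reached 2.78 in a site 817 bp beyond its end and 1.11 at its promoter in the authors' deposited table. U2AF2, which binds the polypyrimidine tract, reached 2.37 in a site 79 bp beyond its end and 1.60 at its promoter in the authors' deposited table. The SF3A2 site also lay 187 bp into AMH, and the U2AF2 site over the start of EPN1, so both were promoter sites of a neighbour. SNRPD2, a core snRNP protein, had 1.56 at its promoter in the authors' deposited table.

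Of 26 mitochondrial genes, 15 had a site, or 57.7% (38.95 to 74.46%). At the promoter 13 had one, or 50% (32.06 to 67.94%). Over all chromosome 19 protein-coding genes these shares were 46.1% and 25.9%. The 15 genes had a median log2 fold of 1.06, against 1.32 over all chromosome 19 genes with a site. None of the 15 reached 2, against 140 of those 669. NDUFS7, a subunit of respiratory complex I, had the largest, with 6.89 in ChIP, 5.13 in input and a log2 fold of 1.76 across its start in the authors' deposited table. NDUFA11 and NDUFA7, also of complex I, had 1.74 and 1.72 in the authors' deposited table, both toward the gene's end, and the NDUFA7 site also lay over the start of CD320. TIMM13, of the import machinery, had 1.43 across its start in the authors' deposited table.

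Genes of RNA polymerases and elongation had a site at 13 of 18, or 72.2% (49.13 to 87.5%). Those with a promoter site were 8, or 44.4% (24.56 to 66.28%). All chromosome 19 genes together stood at 46.1% and 25.9%. The 13 had a median log2 fold of 1.44. After CD3EAP came MLLT1, a subunit of the super elongation complex, with 8.29 in ChIP, 5.65 in input and a log2 fold of 2.64 inside the gene in the authors' deposited table. ELL, an elongation factor, had 8.58 in ChIP, 6.39 in input and a log2 fold of 2.19 across its start in the authors' deposited table. POLRMT, MED16, MED25, ELOF1 and ERCC2 had no site.

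Early-response and stress genes had their strongest sites mostly away from the start. Of 22, 15 had a site, or 68.2% (47.32 to 83.64%), against 46.1% of all chromosome 19 genes. At the promoter 6 had one, or 27.3% (13.15 to 48.15%), against 25.9%. The 15 had a median log2 fold of 1.49. Of the 15, 6 reached 2, against 140 of 669 over all chromosome 19 genes with a site. JUNB, a subunit of AP-1, had 9.09 in ChIP, 5.18 in input and a log2 fold of 3.91 at a site 1122 bp upstream in the authors' deposited table. IER2, an immediate early gene, had 9.04 in ChIP, 5.32 in input and a log2 fold of 3.72 at a site 450 bp past its end in the authors' deposited table. GADD45B, a stress sensor, had 8.42 in ChIP, 4.79 in input and a log2 fold of 3.63 at a site 145 bp past its end in the authors' deposited table.

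ZFP36, which encodes tristetraprolin, a factor of mRNA decay, had 7.94 in ChIP, 4.75 in input and a log2 fold of 3.19 at a site 3073 bp upstream in the authors' deposited table. The strongest site lay past or over the gene's end at 6 of the 15 early-response genes, against 76 of 669 over all chromosome 19 genes with a site. JUND, KLF2, CEBPA, BBC3, KLF16, NR2F6 and SERTAD3 had no site. By the listed distance, the IER2 site lay 4943 bp and the GADD45B site 2282 bp from the gene's start.

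Growth signalling genes had a site at 18 of 30, or 60% (42.32 to 75.41%). At the promoter 11 had one, or 36.7% (21.87 to 54.49%). All chromosome 19 genes together stood at 46.1% and 25.9%. The 18 had a median log2 fold of 1.56. DAPK3 led in fold through the low-input site it shares with EEF2, and had 0.78 at its promoter in the authors' deposited table. AKT2, a kinase downstream of PI3K, had 9.19 in ChIP, 6.55 in input and a log2 fold of 2.64 across its start in the authors' deposited table. TGFB1, a growth factor, and PTPRS, a receptor phosphatase, had 1.91 and 1.90 in the authors' deposited table, both inside the gene. MAP2K2, INSR, GNA11, PIK3R2, JAK3 and 7 others had no site.

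Adhesion and actin genes had a site at 15 of 23, or 65.2% (44.89 to 81.19%). The share over all chromosome 19 genes, 46.1%, lies within that interval. A promoter site was held by 4, or 17.4% (6.98 to 37.1%), an interval that spans the 25.9% of all chromosome 19 genes. The 15 had a median log2 fold of 1.52. MYO9B and ICAM3 came first through the shared sites given above. VASP, which extends actin filaments, had 8.13 in ChIP, 5.18 in input and a log2 fold of 2.95 at a site 1133 bp past its end, against 1.49 at its promoter, in the authors' deposited table. BSG, which encodes the surface glycoprotein basigin, reached 1.97 in a site 290 bp beyond its end in the authors' deposited table.

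Basal and epidermal epithelial genes had a site at 11 of 20, or 55% (34.21 to 74.18%). Those with a promoter site were 5, or 25% (11.19 to 46.87%). All chromosome 19 genes together stood at 46.1% and 25.9%. The 11 had a median log2 fold of 1.20. After LSR came FXYD3, a regulator of the sodium pump, with 7.41 in ChIP, 5.57 in input and a log2 fold of 1.84 inside the gene in the authors' deposited table. PLAUR, the urokinase receptor, had 1.67 at its promoter, and DMKN, a secreted protein of the epidermis, had 1.54 upstream, in the authors' deposited table. KLK5, KLK6, KLK7, KLK8, KLK10, FXYD5, LGALS7, CNFN and BCAM had no site. Markers of cell types other than epithelium had sites at 4 of 14 immune genes, 4 of 12 neuron genes and 2 of 10 liver genes. Their promoter sites numbered 1, 1 and 0, at CD22 and SYNGR4. In the authors' deposited table, the largest log2 folds were 2.08 for CD79A (immune), 2.42 for CACNA1A (neuron) and 2.28 for APOC1 (liver). These sites lay 4694, 13573 and 2716 bp upstream, and the CD79A site lies inside RPS19. Each of these folds exceeded the 1.84 of FXYD3. ChIP of a DNA-bound protein does not measure expression, so these counts do not check which cells were present.

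**Figure D5:**
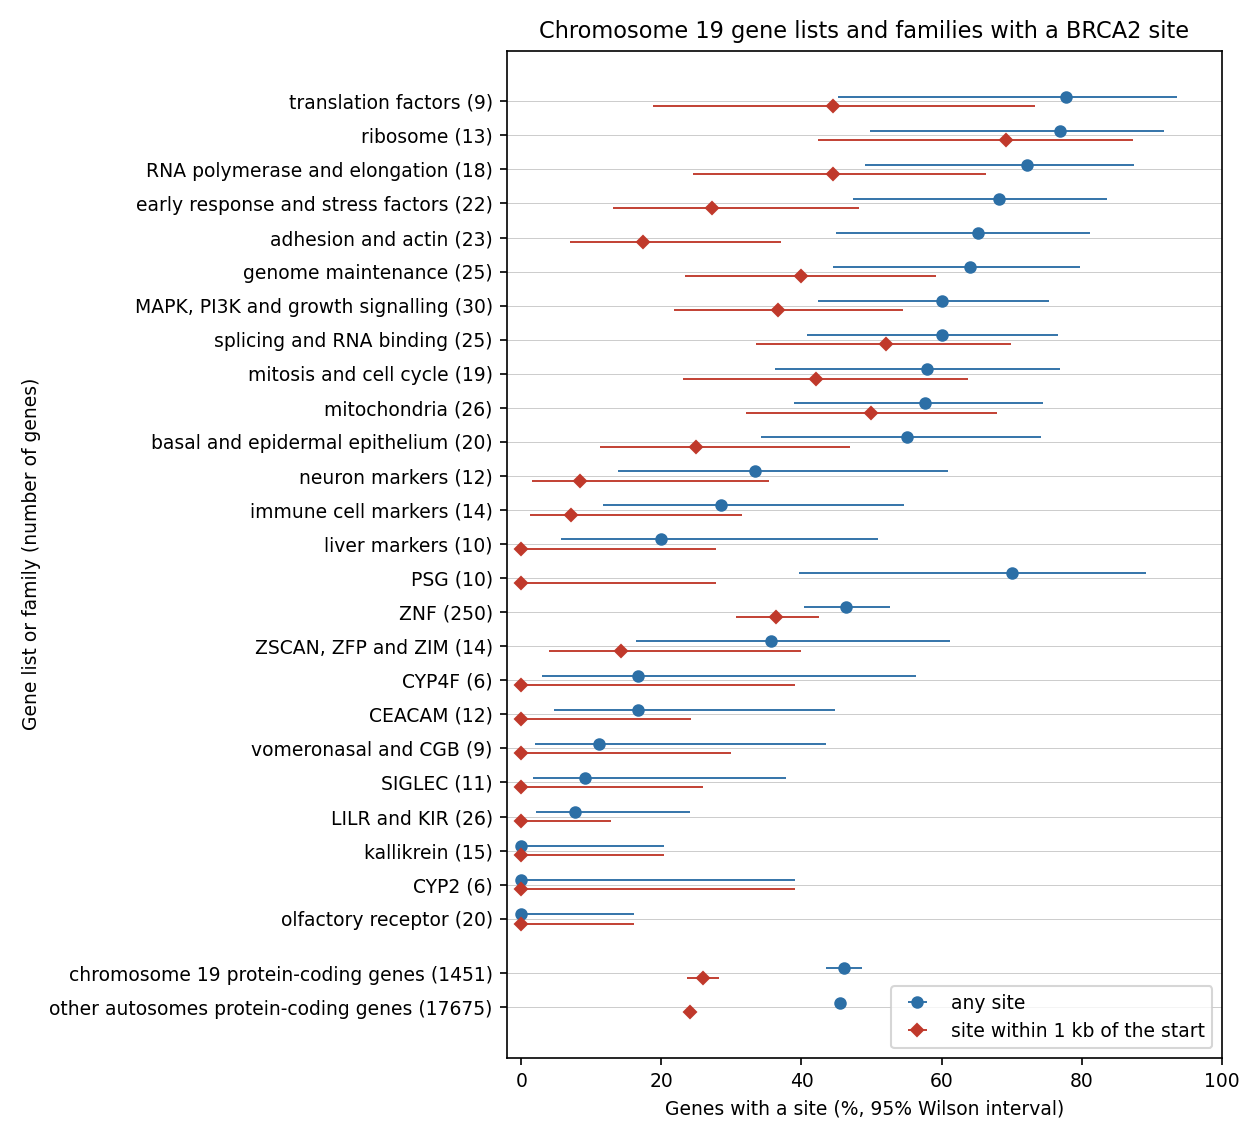
Points give the percentage of genes in each chromosome 19 list or family that had any BRCA2 site (circles) or a site within 1 kb of the start (diamonds), with 95% Wilson intervals and, at the foot, all protein-coding genes of chromosome 19 and of the other autosomes. Ribosomal protein genes stand at 76.9% and 69.2%, and kallikrein and olfactory receptor genes at 0%.

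The ZNF genes, mostly KRAB repressors of transposable elements, were the largest family, with 250 members. A site was paired with 116, or 46.4%, and a promoter site with 91, or 36.4% (30.7 to 42.5%). All chromosome 19 genes together stood at 46.1% and 25.9%. The 255 ZNF genes of the other autosomes had a site at 52.9% and a promoter site at 35.3%. The median log2 fold at the strongest site was 1.14 over the chromosome 19 ZNF genes, with 10 of 116 at 2 or more and none at 4. Over the ZNF genes of the other autosomes it was 1.27, with 22 genes, or 16.3% of those with a site, at 2 or more and 3 at 4. Chromosome 19 genes other than ZNF had a median of 1.40, with 130 of 553 at 2 or more and 37 at 4. At 87 of the 116 ZNF genes the strongest site lay within 1 kb of the start.

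The largest ZNF fold belonged to 1 site shared by ZNF709 and ZNF564, 306 bp and 238 bp before their starts, with 8.52 in ChIP, 4.84 in input and a log2 fold of 3.68 in the authors' deposited table. ZNF845 had 8.74 in ChIP, 5.21 in input and a log2 fold of 3.53 at a site 97 bp before its start in the authors' deposited table. ZNF552 had 8.92 in ChIP, 5.45 in input and a log2 fold of 3.47 across its start in the authors' deposited table, and the same site lay inside ZNF586. Outside the ZNF names, 5 of 14 ZSCAN, ZFP and ZIM genes had a site and 2 a promoter site. ZFP14 led them with 8.69 in ChIP, 4.47 in input and a log2 fold of 4.21 across its start in the authors' deposited table, and ZFP36, a zinc finger protein of another kind, came next. ZSCAN5A and ZSCAN22 had 1.68 and 1.43 in the authors' deposited table.

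The other tandem families had no promoter site, and all but one of them had few sites of any kind. None of the 15 kallikrein genes, which encode secreted serine proteases, had a site, nor any of 20 olfactory receptor genes or 6 CYP2 genes. With 15 and 20 genes, the 95% Wilson intervals reach 20.4% and 16.1%. Over all chromosome 19 genes, 46.1% had a site and 25.9% a promoter site. A site was paired with 1 of 11 SIGLEC genes, 2 of 12 CEACAM genes, 2 of 26 LILR and KIR genes, 1 of 6 CYP4F genes and 1 of 9 vomeronasal and CGB genes. Their largest log2 folds in the authors' deposited table were 1.87 at SIGLEC16, 0.95 at CEACAM8, 1.49 at a site shared by LILRB3 and LILRA6, 0.76 at CYP4F22 and 1.47 at CGB1. CEACAM16, the other CEACAM gene with a site, had 0.82 in the authors' deposited table. The pregnancy-specific glycoprotein genes were paired with a site at 7 of 10, all away from the start. PSG1 had 8.08 in ChIP, 6.0 in input and a log2 fold of 2.08 at a site 9738 bp upstream in the authors' deposited table, followed by PSG8 with 1.08, PSG3 with 0.89 and PSG9 with 0.87. Reads from near-identical copies can be split between family members or lost, and how multiple matches were treated is not given in the sources used here, so these counts are uncertain.

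MicroRNA genes were paired with sites at 16 of 142, or 11.3% (7.06 to 17.5%), against 13.8% of all microRNA genes of chromosomes 1 to 22 and X and 14.7% of those on the other autosomes. A site covered MIR4530 and MIR1181 whole and lay over the start of MIR4754. Their mature sequences are shown from RefSeq, on GRCh38.p14, with the seed (bases 2 to 8) in capitals.
hsa-miR-4530, chr19:39409629-39409646, minus strand: cCCAGCAGgacgggagcg
hsa-miR-1181, chr19:10403505-10403525, minus strand: cCGUCGCCgccacccgagccg
hsa-miR-4754, chr19:58386827-58386849, minus strand: aUGCGGACcuggguuagcggagu

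The 3 seeds differed from each other. The MIR4530 site had 8.75 in ChIP, 5.70 in input and a log2 fold of 3.04 in the authors' deposited table, the largest among microRNA genes. MIR1181 had a log2 fold of 1.41 and MIR4754 of 1.19 at the sites over them in the authors' deposited table. MIR24-2, of the miR-23a, miR-27a and miR-24 cluster, reached 2.89 in a site 589 bp beyond its end in the authors' deposited table. None of the 51 members of the placental microRNA cluster and the neighbouring miR-371 to miR-373 group was paired with a site.

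Sites on chromosome 19 lay close together. The median gap between neighbouring sites was 28.9 kb, against 57.5 kb on the other autosomes. Clusters, taken as at least 3 sites with gaps of at most 10 kb, numbered 39 and held 127 sites, or 15.1%, against 7% on the other autosomes. This share was the highest of the 22 autosomes, with chromosome 11 next at 14.1%. The place depends on the rule, since chromosome 19 was 3rd with gaps up to 5 kb, where the share was 2.14%, and 2nd at an FDR under 0.01, where it was 12.04%. The share with gaps up to 10 kb correlated with genes per Mb over the 22 autosomes, with a Spearman correlation of 0.684, and of 0.637 without chromosome 19, again as a description. Sites in chromosome 19 clusters had a median log2 fold of 1.36 and 28 of 127 at 2 or more, or 22.05%, against a median of 1.20 and 12.75% for chromosome 19 sites outside clusters. Promoter sites made up 35.4% of the sites in clusters and 48.0% of those outside.

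The largest cluster, chr19:46072150-46096080, held 6 sites, all inside OPA3, a mitochondrial gene of optic atrophy. The last of them also lay inside GPR4, a gene of a proton-sensing receptor, and the others past its end. In the authors' deposited table their log2 folds lay between 0.75 and 1.41, and none was a promoter site. Clusters of 4 sites came next, numbering 7. The cluster at RPL18, FAM83E, SPACA4 and SPHK2 had 1.1, 3.19, 1.60 and 1.35 as log2 folds in the authors' deposited table. SPHK2 makes the lipid signal sphingosine 1-phosphate, and its start and that of RPL18 lay by the third of these sites. The cluster at MBOAT7, TSEN34 and RPS9 had 1.24, 2.05, 1.08 and 2.65 in the authors' deposited table. TSEN34 is a subunit of the tRNA splicing endonuclease and MBOAT7 an acyltransferase of phosphatidylinositol. The cluster at ZNF524, FIZ1 and ZNF865 had 1.90, 1.37, 1.58 and 1.32 in the authors' deposited table.

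A few genes were paired with many sites. OPA3 had 11, none at its promoter and 9 of them inside the gene, with log2 folds between 0.75 and 2.95 in the authors' deposited table. SIPA1L3, a GTPase-activating protein for Rap, had 8 and GNG7, a G protein subunit, had 7, all inside the gene, with log2 folds up to 1.38 and 1.18 in the authors' deposited table. MARK4, a kinase of microtubule-binding proteins, had 7, up to 1.69 in the authors' deposited table. Then came 6 genes with 6 sites each. At HOOK2, a dynein adaptor, the 6 sites had a median log2 fold of 2.74 and a maximum of 5.29 in the authors' deposited table, the maximum being the site over the PRDX2 start. At ERCC1 the 6 sites had a median of 1.22 and a maximum of 5.48 in the authors' deposited table, the maximum being the site of PPP1R13L. EHD2, VASP, GPR4 and POU2F2 had maxima of 3.31, 2.95, 1.41 and 1.15 in the authors' deposited table. Most genes with a site had few, since 448 of the 669 had 1 and 156 had 2.

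Gene order was read for runs of neighbouring genes with or without a site. The longest run of neighbouring chromosome 19 genes that all had a promoter site held 6 genes, SUGP1, MAU2, GATAD2A, TSSK6, NDUFA13 and YJEFN3, some of which share a site. The longest run with any site held 16 genes, starting at IRGQ and ending at ZNF230, 8 of them ZNF genes. The longest runs without a site also held 16 genes each. They were the ZNF genes ZNF738 to ZNF724, the kallikrein stretch KLK1 to KLK14, and the stretch EDDM13 to DUXA. Longer runs stood on other autosomes. They held 9 genes for promoter sites (chromosome 2), 25 for any site (chromosome 10) and 171 without a site (chromosome 6). The run of 171 spans the HLA genes, and chromosome 10 had the highest median input of the autosomes, 5.91. A chromosome 19 gene whose predecessor had a promoter site had one itself in 37.6% of cases, against 21.9% when the predecessor had none. On the other autosomes these shares were 38.2% and 19.7%. Neighbours can be paired with the same site, so part of this contrast is built in. No expected run length was worked out.

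Along the chromosome, 364 sites lay on the short-arm side of the longest stretch without a site and 477 on the long-arm side. That stretch ran over 4.01 Mb, between 24270314 and 28284504, and spans the centromere. The median log2 fold was 1.20 on the short-arm side and 1.22 on the long-arm side. Of the 10 sites of largest fold, 3 lay on the short arm.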

How the data were processed

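ChIP-seq libraries with an antibody to BRCA2 (2) and input libraries (2) of hTert-HME1 cells were compared by the submitters. DiffBind, MACS2, Picard 1.92, Bowtie 1.1.1, cutadapt 1.8.1 and SAMtools, with the hg19 build, are named in the submitters' processing notes. The sources used here give neither the settings nor the treatment of reads with several matches. Per the file headers, the authors' deposited table gives each site a mean log2 concentration per group, their difference as a log2 fold, and an FDR, a q-value up to 0.05. It holds no value per library, so the depth and the spread between replicates are unknown here, and no test was run beyond the authors' own. The labels do not say that ChIP and input libraries with the same number come from 1 culture. Sites are given counted from 1, since the deposited starts count from 0.

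Sites on chromosome 19 were set beside those of the other 21 autosomes with python 3.11.15, pandas 2.3.3, numpy 2.4.6 and scipy 1.17.1. A promoter site lay over a listed start or within 1 kb of one. A cluster was at least 3 sites with gaps of at most 10 kb. Shares carry 95% Wilson intervals and medians 95% intervals from binomial ranks, which cover counting error only. Genes were matched by symbol, then by identifiers, to RefSeq genes of GRCh38.p14, used for names, counts and gene order. Of 1411 chromosome 19 rows, 1009 matched a protein-coding gene. RefSeq promoters of 300 bases were found for 1185 of 1451 chromosome 19 genes and 13916 of 16960 on the other autosomes, with chromosome 8 left out. The site and cluster steps were tested on simulated data.

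Named were the 10 sites of largest fold and the 10 of smallest FDR with a symbol, the 5 genes with the most sites (with ties), the 5 clusters with the most sites, the lowest folds, the 2 sites on each side of a log2 fold of 2, and up to 4 leading members of each gene list and family. The members and lists were chosen with earlier results of these data known. Lists covered genome maintenance, mitosis, early response, ribosome, translation, splicing, mitochondria, RNA polymerase, growth signalling, epithelium, adhesion, immune, neuron and liver genes. Some genes that this rule takes are not reported here. Alternatives changed the FDR or fold limit, the promoter distance, the cluster rule, the chromosomes and the genes counted.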

Additional observations from a re-analysis of the deposited data

How the results depend on the processing

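The results kept their direction under most alternatives. The chromosome 19 share of autosomal sites, 5.66% as reported, was 6.07% at a log2 fold of at least 1, 7.47% at 2 or more, and 6.46% without chromosomes 4, 10, 13, 14 and 18. The ratio of sites per gene, 0.731, was 0.787 at a log2 fold of at least 1, 0.983 at 2 or more, and 0.870 with ZNF genes left out. Chosen after seeing the data, promoter sites alone gave a ratio of 1.035, which turned the direction, sites away from promoters gave 0.584, and leaving out genes with LOC names gave 0.731. The difference in median log2 fold, 0.07, turned to -0.035 at promoter sites alone. There the interval of the chromosome 19 median, 1.17 to 1.29, spans the 1.26 of the other autosomes. The promoter share, 46.1%, was 59.2% within 3 kb. The clustered share, 15.1%, was 2.14% with gaps up to 5 kb, 48.6% with gaps up to 25 kb, 37.0% with at least 2 sites per cluster, and 12.04% at an FDR under 0.01. Chromosome 19 then ranked 3rd of 22 at 5 kb, 2nd at an FDR under 0.01, and 1st under the other cluster rules. The share of genes with a site, 46.1%, was 25.9% within 1 kb of the start and 39.0% at an FDR under 0.01. No paired analysis was possible because the authors' deposited table holds group means only. Leaving out a replicate was not run for the same reason. Depth per library is unknown here, so a missing site cannot be told apart from one below the reach of these libraries.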

Other observations

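In windows of 5 Mb, the most sites lay from 45 to 50 Mb, where 147 sites held 22 whose log2 fold was 2 or more. From 55 to 60 Mb, a stretch rich in ZNF genes, 77.6% of 67 sites were promoter sites, 11 reached a log2 fold of 2 and none reached 4. The windows from 20 to 25 Mb and from 25 to 30 Mb, on both sides of the centromere, held 5 sites and 1 site.

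The genes below were named after their values were seen. DPP9, a dipeptidyl peptidase, carried 2 sites whose log2 fold was 4 or more. In the authors' deposited table, the one at chr19:4723708-4724207 had 10.62 in ChIP, 5.66 in input and a log2 fold of 4.96, and the one at chr19:4713401-4713900, inside the gene, had 10.12 in ChIP, 5.96 in input and 4.16. PPFIA3, a liprin, was also paired with 2. In the authors' deposited table, a site of log2 fold 4.00 lay by its start and was shared with LIN7B, and a site of 4.81 was shared with HRC. The site by AP3D1 and DOT1L had the lowest input of the chromosome, 2.79, with 8.04 in ChIP and a log2 fold of 5.25 in the authors' deposited table.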
